A study of Rattus norvegicus with 12 samples.

Results

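The genes described here encode transcription factors of the endoplasmic reticulum (ER) membrane and of the unfolded protein response, and were measured in FaO rat hepatoma cells given α-lipoic acid (α-LA) or thapsigargin. The 8 genes are Creb3l3, Creb3, Creb3l1, Creb3l2, Atf6, Atf6b, Xbp1 and Nfe2l1. Each was found by its symbol and each had 1 probe, so that 8 of the 22523 probes on the array, and 8 of 14941 named genes, were followed. Nfe2l1 took its symbol from the study's own table of probes and the other 7 from the annotation of the array platform. The set was selected by gene name, but Creb3l3 was chosen by its measured signals, with its rise under α-LA and its lack of rise under thapsigargin already known. Its values are therefore given as a description, without a test in any comparison.

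Expression was profiled on 12 Illumina rat arrays in order to follow the ER stress response of the cells to α-LA, a cofactor of mitochondrial enzyme complexes. Of these, 3 were untreated controls, 7 came from cells kept with 500 µM α-LA for 6, 18, 24, 30, 42, 48 or 72 h, with 1 array for each time, and 2 came from cells given 0.1 µM thapsigargin, an inhibitor of the calcium pump that fills the ER. FaO is a rat hepatoma line; all dishes were in medium with 2% fetal calf serum, α-LA was renewed every day, and each RNA sample pooled 3 wells. The titles put thapsigargin at 18 and 24 h and the protocol at 6 and 18 h, so its arrays are named here by title and its hours are not certain. The 18, 24 and 30 h arrays formed the early α-LA group and the 42, 48 and 72 h arrays the late one. This split is that of the study and was drawn from these same arrays, and different times stand in for replicates. Nothing in the sources states that the 3 controls were separate cultures, so the p-values measure the spread between these arrays, part of which may be technical. The hour at which the controls were harvested and the solvent they received were not given in the sources used here. Solvent and time in culture therefore cannot be told apart from treatment. Per the methods, α-LA was dissolved in sodium hydroxide, then neutralized, and thapsigargin in DMSO. Solvent and agent thus cannot be told apart where thapsigargin is set against α-LA.

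These factors share a basic leucine zipper that binds DNA, and most are made as inactive proteins held in the ER membrane. Under ER stress ATF6, ATF6B and the CREB3 family travel to the Golgi, where site 1 and site 2 proteases cut them and free the fragment that enters the nucleus. XBP1 becomes a potent activator when the kinase and nuclease IRE1 removes an intron from its mRNA, while NFE2L1 is freed from the ER membrane by other enzymes and drives proteasome genes. CREB3L3, also named CREBH, is a factor of liver and intestine that acts on genes of lipid and glucose metabolism and of the acute phase. Arrays measure the mRNA of these genes and carry no information on the cutting of the proteins. No array file used here separates the spliced from the unspliced Xbp1 mRNA, and which form the Xbp1 probe detects could not be read from them. By RT-PCR in FaO cells the paper reports Xbp1 splicing with α-LA, and with thapsigargin at a higher dose than on the arrays. It also reports a decline of cleaved ATF6 protein with α-LA, by blot.

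The windows at the start sites of these genes were searched for the sequences that ATF6 and XBP1 are known to bind. RefSeq windows on build GRCr8, 250 bases before to 50 bases after the start, were at hand for 7 of the 8 genes, Atf6 being the one without. The ER stress element, CCAAT and CCACG with 9 free bases between them, searched on both strands, was present in 22 of 33469 windows of all genes (0.0657%), and among the members it was matched in Xbp1 alone, starting 65 bases before the start site. The shorter ACGTGG, the core that XBP1 and the CREB3 family bind, occurs in 7.84% of all windows and was matched in Creb3, 106 bases before the start, and in Creb3l3, 15 bases after it. The second ER stress element, ATTGG and CCACG with 1 free base between them (0.0508% of all windows), and TGACGTGG (0.595%), which contains ACGTGG, were matched in no member. The 3 windows with a match are printed because they show which members carry such letters close to their start, with the matched CCAAT and CCACG of the Xbp1 element and the matched ACGTGG of the other genes in capitals. Xbp1 lies at chr14:84604373-84604672, Creb3 at chr5:62613402-62613701 and Creb3l3 at chr7:9273070-9273369, all on the plus strand.
Xbp1: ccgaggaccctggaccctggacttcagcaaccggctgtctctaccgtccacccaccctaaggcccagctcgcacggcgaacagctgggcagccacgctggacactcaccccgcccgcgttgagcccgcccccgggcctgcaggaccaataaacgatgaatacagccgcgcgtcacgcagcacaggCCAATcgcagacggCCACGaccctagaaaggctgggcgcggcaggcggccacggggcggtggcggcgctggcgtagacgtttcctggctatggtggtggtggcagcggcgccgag
Creb3: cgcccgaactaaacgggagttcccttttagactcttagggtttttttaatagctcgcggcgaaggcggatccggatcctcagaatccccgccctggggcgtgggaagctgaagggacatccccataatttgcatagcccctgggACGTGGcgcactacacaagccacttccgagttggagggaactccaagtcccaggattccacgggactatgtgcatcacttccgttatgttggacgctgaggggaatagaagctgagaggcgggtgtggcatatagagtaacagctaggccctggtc
Creb3l3: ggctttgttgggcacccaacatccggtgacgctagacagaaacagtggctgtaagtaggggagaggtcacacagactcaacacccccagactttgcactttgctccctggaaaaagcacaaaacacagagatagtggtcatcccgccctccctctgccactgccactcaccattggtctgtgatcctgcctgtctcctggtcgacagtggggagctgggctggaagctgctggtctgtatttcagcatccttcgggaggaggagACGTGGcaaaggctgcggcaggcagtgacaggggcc
A match is a description of the letters and does not show that a factor was bound there.

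A signal of 150 was taken as the background of the arrays, and 6 of the 8 members stood at or above it on all 12 arrays. These were Creb3, Creb3l1, Creb3l2, Atf6b, Xbp1 and Nfe2l1, so that none of them entered the test only through a group in which it was high. Creb3l3 reached 150 on 11 arrays and was under it on the thapsigargin 18 h array. The probe of Atf6, the best known of the membrane-bound sensors, lay between 113.5 and 148.1 on the 12 arrays and was below background on each of them. No change is therefore given for Atf6. The signals still contain background, so changes of the dim members Creb3l3, Creb3l1 and Creb3l2 are understated. Signals of different probes are not compared with each other, since each probe has its own response.

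**Figure D1:**
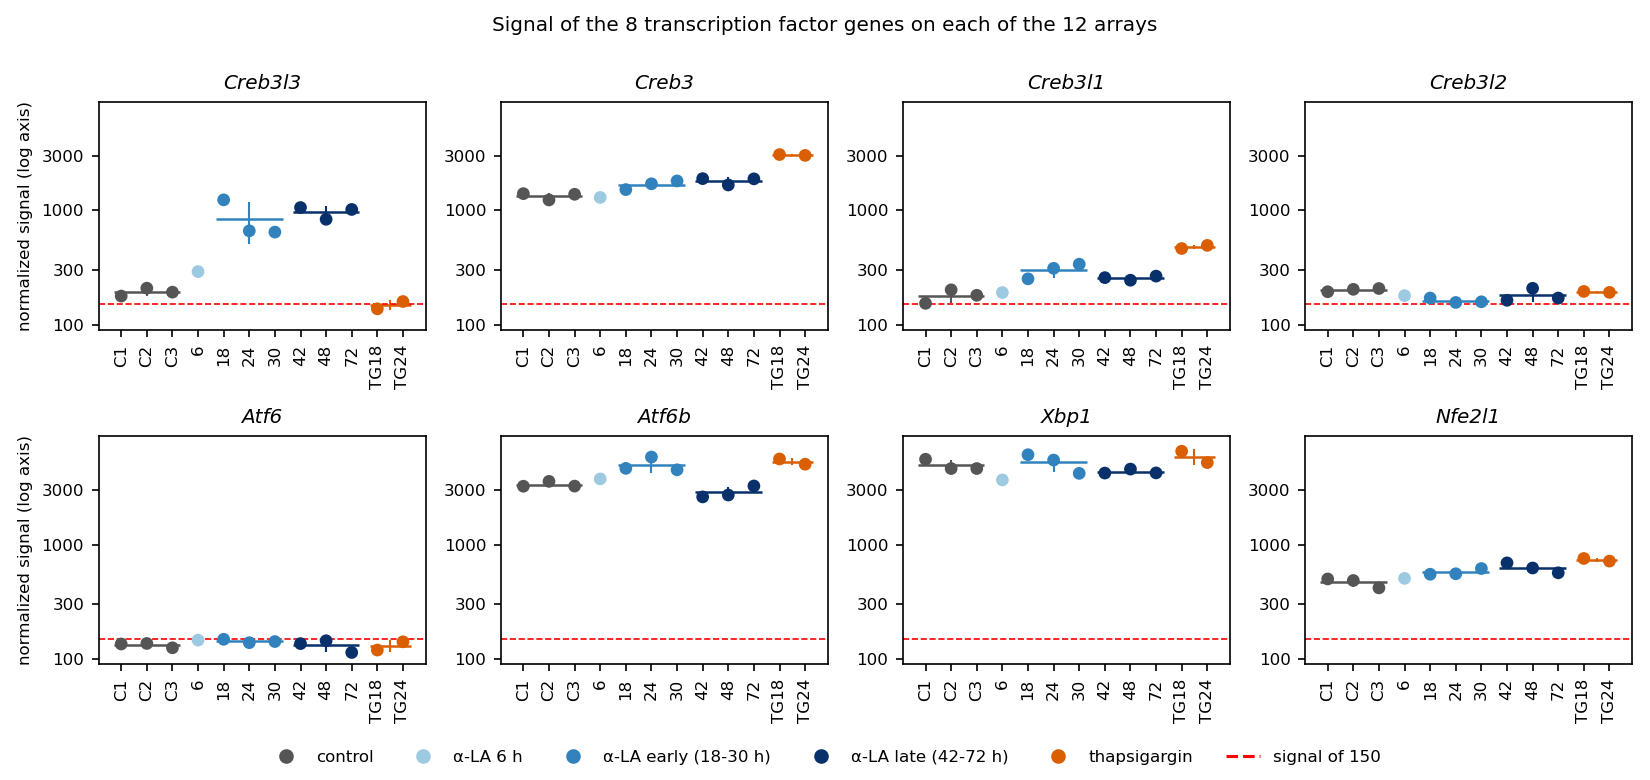
Normalized signal (log axis) of the 8 genes on each array, with controls C1 to C3, α-LA by hour and thapsigargin by its titled hour; horizontal lines are group means, vertical lines are 1 SD, and the dashed line is the background signal of 150. Creb3l3 is high on the α-LA arrays from 18 h on (646 to 1239) and near background with thapsigargin (137 and 159), while Creb3 and Creb3l1 are highest with thapsigargin.

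Creb3l3 was high on the α-LA arrays from 18 h on and near background elsewhere, with an intermediate 6 h array. In the 3 controls its signal was 178, 208 and 192, and with thapsigargin it was 137 and 159. With α-LA it was 291 at 6 h, then 1239, 663 and 646 at 18, 24 and 30 h, and 1061, 837 and 1021 at 42, 48 and 72 h. Every α-LA array was thus above every control, the 6 h array included, and both thapsigargin arrays were below the lowest control. The signal averaged 193 ± 15.3 (SD, n = 3) in the controls, 849 ± 337 (n = 3) in the early group and 973 ± 119 (n = 3) in the late group. On the log2 scale the early mean was 2.07 above the controls (4.21-fold) and the late mean 2.33 above (5.03-fold), while the early and late groups overlapped. The rise was in place at 18 h, the highest of the 7 times (6.44-fold over the controls), compared with 1.51-fold at 6 h. With thapsigargin the mean was 148 ± 15.4 (n = 2), 1.30-fold below the controls. With the lowest signal of the table subtracted from every value and 16 added, the Creb3l3 differences became 2.61 in the early group, 2.90 in the late group and -0.67 with thapsigargin on the log2 scale. The lower level with thapsigargin rests on signals of 137 and 159, on either side of the background of 150.

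The levels of Creb3l3 thus ordered as thapsigargin, controls, 6 h α-LA, and then the early and late α-LA groups, which did not differ beyond their spread. As a description of the pattern, with no p-value, the log2 signal of each named probe that was tested was correlated with that of Creb3l3 over the 12 arrays. Among 8376 probes the closest were Aqp8 (r = 0.984), a membrane channel for water and hydrogen peroxide, LOC497674 (r = 0.972), Cmbl (r = 0.96), a hydrolase, Cidea (r = 0.956), a protein of lipid droplets, and Plac8 (r = 0.956). The mean signal of Aqp8 was 562 in the controls, 1207 in the early and 1274 in the late α-LA group, and 459 with thapsigargin. For Plac8 the 4 means were 304, 597, 580 and 192 in the same order. Cidea was near or below background in the controls (149, 159 and 148) and with thapsigargin (148 and 137). LOC497674 was below background with thapsigargin (148 and 140). These 5 probes were chosen for their likeness, and the 12 arrays share their treatment groups, so that a like response to α-LA is enough for a high r.

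Creb3, also named LUMAN, is a member of the family found in many tissues and is linked to Golgi stress. Its signal was 1404, 1236 and 1387 in the controls and 1301 at 6 h of α-LA. It was 1524, 1713 and 1815 in the early group, 1902, 1673 and 1893 in the late group, and 3090.2 and 3038 with thapsigargin. Every treated array from 18 h on lay above the controls, the early and late groups overlapped, and both thapsigargin arrays stood apart above all the others. With thapsigargin Creb3 rose 2.29-fold (log2 1.19, SE 0.109, adjusted p = 3.2e-06, limma). The rise was smaller with α-LA, with log2 changes of 0.33 early (SE 0.103, adjusted p = 0.03) and 0.44 late (adjusted p = 0.0055). The difference between the treatments was itself past the threshold, with thapsigargin 1.82-fold above early α-LA (adjusted p = 0.00011) and 1.68-fold above late α-LA (adjusted p = 0.00039). The early call was lost without control 2 (adjusted p = 0.12), without control 3 (0.063), without the 24 h array (0.065) and without the 30 h array (0.11).

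Creb3l1, or OASIS, is known for driving collagen secretion in bone-forming cells. Its signal was 154, 202 and 181 in the controls, 191 at 6 h, 252, 311 and 338 in the early group, and 258, 245 and 266 in the late group. Thapsigargin gave 464 and 494. The pattern matched that of Creb3 in its order, with controls and the 6 h array lowest, the overlapping early and late α-LA groups above them, and thapsigargin highest. Creb3l1 rose 2.70-fold with thapsigargin (log2 1.43, SE 0.138, adjusted p = 4.9e-06, limma), 1.68-fold in the early group (adjusted p = 0.0011) and 1.44-fold in the late group (adjusted p = 0.0072). Thapsigargin was above early α-LA by 0.68 on the log2 scale (adjusted p = 0.0027) and above late α-LA by 0.90 (adjusted p = 0.00055).

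Creb3l2, or BBF2H7, acts in cartilage cells on genes of vesicle transport and is the closest relative of Creb3l1. Its signal was 194, 204 and 207 in the controls, 179 at 6 h, 171, 156 and 158 in the early group, 163, 208 and 171 in the late group, and 195 and 191 with thapsigargin. The 12 arrays spanned a narrow range just above background. Creb3l2 was lower in the early group by a log2 change of -0.32 (SE 0.105, adjusted p = 0.037, limma), with no overlap, but this call did not hold without any 1 of the 3 controls, nor without the 24 h or the 30 h array (adjusted p from 0.055 to 0.12). The late change was -0.17 (adjusted p = 0.25) and that with thapsigargin -0.06 (adjusted p = 0.72). Creb3l4, the remaining gene of the family on the array and not one of the 8, was below background on each array, at 129.8 or less.

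The ATF6 pair was represented by Atf6b, whose product is known mostly as a weaker activator that can dampen ATF6. Its signal was 3253, 3588 and 3261 in the controls and 3769.6 at 6 h of α-LA. In the early group it was 4666, 5865 and 4531, in the late group 2622, 2723 and 3269.5, and with thapsigargin 5638 and 5071. The early arrays and the thapsigargin arrays were all above the controls, whereas the late arrays fell back to or below them, the 72 h array being within the range of the controls. Atf6b rose 1.48-fold in the early group (log2 0.57, SE 0.123, adjusted p = 0.0043, limma) and 1.59-fold with thapsigargin (log2 0.67, SE 0.133, adjusted p = 0.0014). The late change from the controls, -0.24 on the log2 scale, did not pass (adjusted p = 0.16). Tested directly, the late group was 1.75-fold below the early group (log2 -0.80, SE 0.123, adjusted p = 0.0025). Thapsigargin was 1.87-fold above late α-LA (adjusted p = 0.00043), while its difference from early α-LA was 0.10 (SE 0.133, adjusted p = 0.63). Atf6b was thus the 1 member of the 6 tested whose early and late levels under α-LA differed past the threshold.

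Xbp1, the target of IRE1, had signals of 5606, 4649.8 and 4649.8 in the controls and 3694 at 6 h. They were 6144, 5514 and 4217 in the early group, 4242, 4596 and 4255 in the late group, and 6592 and 5239.8 with thapsigargin. The early and thapsigargin groups overlapped with the controls, whereas the late arrays lay just below the lowest control and the 6 h array further below it. No change from the controls passed the test, with log2 values of 0.08 in the early group (SE 0.136, adjusted p = 0.72, limma), -0.18 in the late group (adjusted p = 0.33) and 0.25 with thapsigargin (SE 0.156, adjusted p = 0.24). The 6 h array was the lowest of the 12, at 0.75 of the mean of the controls, without a replicate. Thapsigargin lay 1.35-fold above late α-LA without passing the threshold (adjusted p = 0.06). That difference passed with the 2 groups fitted alone (adjusted p = 0.029), and without the 18 h (0.045) or the 30 h α-LA array (0.026).

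Nfe2l1, the ER-bound relative of the antioxidant factor NRF2, had signals of 500.5, 485 and 418 in the controls and 506 at 6 h. They were 551, 556 and 618 in the early group, 692, 625 and 567 in the late group, and 757 and 718 with thapsigargin. Each treated array was above each control, the early and late groups overlapped, and the thapsigargin arrays were highest. Nfe2l1 rose 1.58-fold with thapsigargin (log2 0.66, SE 0.116, adjusted p = 0.00056, limma) and 1.34-fold in the late group (log2 0.42, SE 0.109, adjusted p = 0.0094). The late call was lost without control 3 (adjusted p = 0.052). The early change of 0.30 did not pass (adjusted p = 0.055), but passed with the thapsigargin arrays in the fit (0.039) or without the 72 h array (0.042). Thapsigargin was above early α-LA by 0.36 (adjusted p = 0.034), a call lost without either thapsigargin array (0.20 and 0.11), and without the 18 h (0.088) or 24 h (0.065) α-LA array. Above late α-LA the difference was 0.24 (adjusted p = 0.16).

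**Figure D2:**
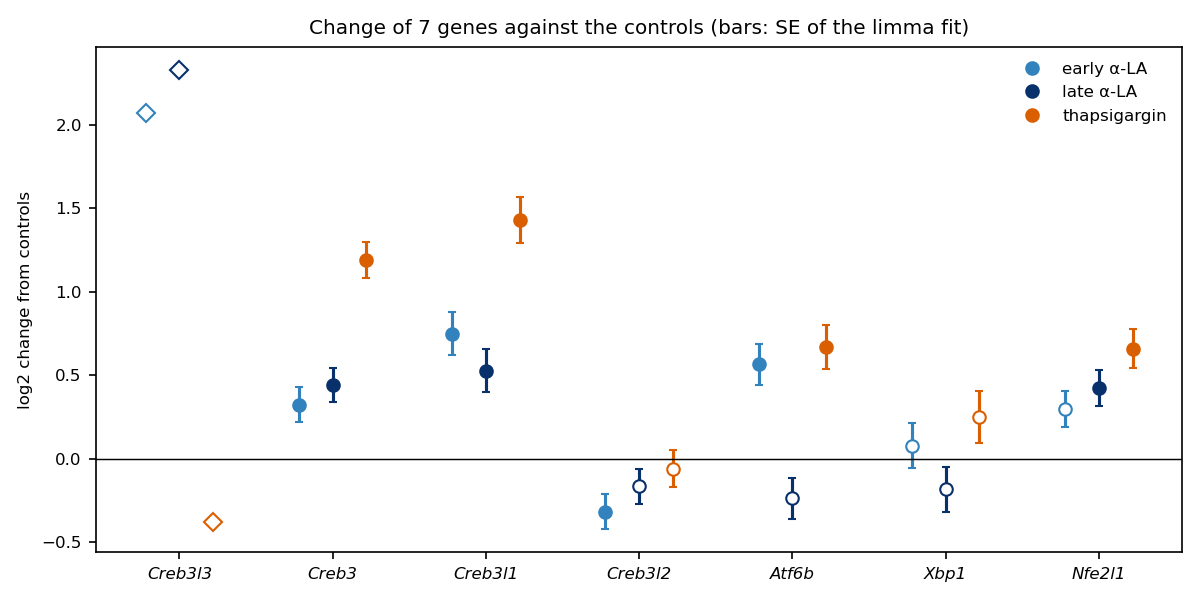
Log2 change from the controls of 7 genes (Atf6 is left out), in the early α-LA, late α-LA and thapsigargin groups; bars are the SE of the limma fit, filled points passed an adjusted p of 0.05 and open circles did not. Open diamonds are Creb3l3, without a test, at 2.07 and 2.33 with α-LA and -0.38 with thapsigargin.

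With Creb3l3 and Atf6 aside, 6 members were tested. With thapsigargin 4 of them were called higher and 0 lower, where 37.9% of the 9193 tested probes were called, 19.2% as higher and 18.7% as lower. Early α-LA gave 3 higher calls and 1 lower, against 32.3% of all probes called (16.6% higher, 15.7% lower). Late α-LA gave 3 higher calls and 0 lower, against 36.7% of all probes (19.1% higher, 17.7% lower). Between late and early α-LA 1 member was called, as lower, where 13.7% of all probes were called (7.23% lower, 6.43% higher). Thapsigargin was higher than early α-LA for 3 members and lower for 0, where 27.5% of all probes were called (13.6% higher, 13.9% lower). It was higher than late α-LA for 3 and lower for 0, where 25.1% were called (12.9% higher, 12.2% lower). The comparisons share the same 3 controls or the same treated arrays, so their counts are not independent of each other. Creb3 and Creb3l1 were higher with thapsigargin than in the control, early and late groups. For Creb3l3, which is described without a test, 1 of the 2 thapsigargin arrays was below background, so no fold against α-LA is given.

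Likeness over the 12 arrays differed among the members. Creb3 was closest to Ehd4 (r = 0.977), Ppt2 and Dcbld2, and Creb3l1 to Rwdd1 (r = 0.977), Srrd and Rab24, all of them highest with thapsigargin. Atf6b was closest to Rbm34 (r = 0.941), Card9 and Ddx56, and Nfe2l1 to Slc30a5 (r = 0.95), R3hdm1 and LOC501633. The closest probe to Creb3l2 was Pxmp4 (r = 0.9), followed by Tor1aip1 and Bmp3, and that to Xbp1 was Actr3 (r = 0.847), followed by Eif3f and Mettl22. No gene was among the closest of more than 1 member.

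The enzymes and sensors that act on these factors were then considered. Mbtps1 encodes the site 1 protease, which makes the first cut in ATF6 and the CREB3 family. Its signal was 510, 487 and 484 in the controls, 422 at 6 h, 309, 259.7 and 239.7 in the early group, 286, 322 and 295 in the late group, and 248.6 and 205 with thapsigargin. Every treated array was below every control. Mbtps1 fell 1.84-fold in the early group (log2 -0.88, SE 0.106, adjusted p = 1e-04, limma), 1.64-fold in the late group (adjusted p = 0.00029) and 2.19-fold with thapsigargin (adjusted p = 1.4e-05). Mbtps2, the site 2 protease that follows it, moved the other way in the early group, from 209 ± 5.67 (n = 3) to 308 ± 17.5 (n = 3), a 1.47-fold rise (adjusted p = 0.0011). Its late change was 0.25 (adjusted p = 0.063), and its rise with thapsigargin of 0.32 (adjusted p = 0.028) was lost without control 2 or 3 or either thapsigargin array (adjusted p up to 0.20).

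Eif2ak3, which encodes the sensor kinase PERK, had a signal between 277 and 329 in the controls and between 275 and 306 in the early group. It reached 687, 688 and 426 at 42, 48 and 72 h of α-LA. The late rise was 1.89-fold over the controls (log2 0.92, SE 0.166, adjusted p = 0.0011, limma), and the late group was 2.00-fold above the early one (adjusted p = 0.0036). With thapsigargin the change was 0.52 (adjusted p = 0.033), a call lost without control 2 or 3 or either thapsigargin array. Ern1, the gene of IRE1, had no named probe. In the list of 17 sensors, proteases and regulators, 14 genes were tested, of which 2 went up and 4 down early, 6 up and 3 down late, and 8 up and 1 down with thapsigargin, where 32.3%, 36.7% and 37.9% of all probes were called. Without the 18 h thapsigargin array the thapsigargin count was 5 genes in place of 9. Their median changes on the log2 scale were -0.09, 0.32 and 0.39 in that order, against 0.01, 0.02 and 0.01 over all tested probes. Hspa5, Dnajc3, Sdf2l1, Pdia6, Sel1l and Syvn1 are also among the ER genes counted below, so the 2 sets of counts are not independent. Dnajc3 rose 1.71-fold early (adjusted p = 0.00061, limma), 1.68-fold late (adjusted p = 0.00058) and 3.03-fold with thapsigargin (adjusted p = 1.6e-06).

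Genes of the ER that ATF6 and XBP1 are known to drive were mostly called higher with thapsigargin and in the late α-LA group. Of the 23 genes tested, out of 28 listed, 20 passed upward and 0 downward with thapsigargin, 16 and 1 in late α-LA, and 4 and 1 in early α-LA, against 37.9%, 36.7% and 32.3% of all probes called in either direction. The early count of 5 became 10 without the 72 h array. The late group was above the early group for 9 genes and below for 0, where 13.7% of all probes were called. This count was 3 without the 30, 42 or 48 h array, 5 without the 18 h array and 15 without the 72 h array. Over the 23 genes the median was 1.01 on the log2 scale with thapsigargin, 0.61 in the late and 0.13 in the early group. Hspa5, the chaperone GRP78 that holds the sensors inactive, was at 10525 ± 1218 (SD, n = 3) in the controls, 15119 ± 2663 (n = 3) early, 24506 ± 7825 (n = 3) late and 31305 ± 2359 (n = 2) with thapsigargin. At 42, 48 and 72 h Hspa5 was at 30759, 27029 and 15732, the last below its 24 h signal of 18193. Its rise was 2.25-fold late (adjusted p = 0.0013, limma) and 2.98-fold with thapsigargin (adjusted p = 0.00014), whereas the early change of 0.52 on the log2 scale had an adjusted p of 0.093 and passed without the 72 h array or with the 2 groups fitted alone.

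Dnajb9, a cochaperone and an established target of XBP1, gave the largest late change of this list. Its signal was 257, 269.7 and 259.5 in the controls, 459.8, 599 and 529 early, 1911, 1835 and 807 late, and 1454.5 and 1448 with thapsigargin. The groups were apart from the controls in each case, and the late group was apart from the early one although the 72 h array was less than those at 42 and 48 h. The rise was 2.01-fold early (adjusted p = 0.011, limma), 5.40-fold late (adjusted p = 2.6e-05) and 5.54-fold with thapsigargin (adjusted p = 1.6e-05). Serp1, which protects new membrane proteins, rose 2.21-fold early, 2.53-fold late and 3.91-fold with thapsigargin. Herpud1, a part of the ER degradation machinery, Manf, a secreted ER protein, and Hsp90b1, the chaperone GRP94, rose 2.35-fold, 2.25-fold and 1.98-fold in the late group. With thapsigargin the same 3 genes rose 2.62-fold, 2.72-fold and 2.13-fold, and none of them passed in the early group (adjusted p = 0.42, 0.063 and 0.48). Manf did pass there without the 42 h or the 72 h array, with the thapsigargin arrays in the fit, and with the 2 groups fitted alone. The late signals of Herpud1 were 3864, 4062 and 1718 at 42, 48 and 72 h, the last below its 18 h signal of 2105. Those of Hsp90b1 were 13921, 12164.5 and 7579.5 in the same order, and those of Manf spanned 2028 to 3610. The Xbp1 probe, whose mRNA form is not known, had no change from the controls that passed.

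**Figure D3:**
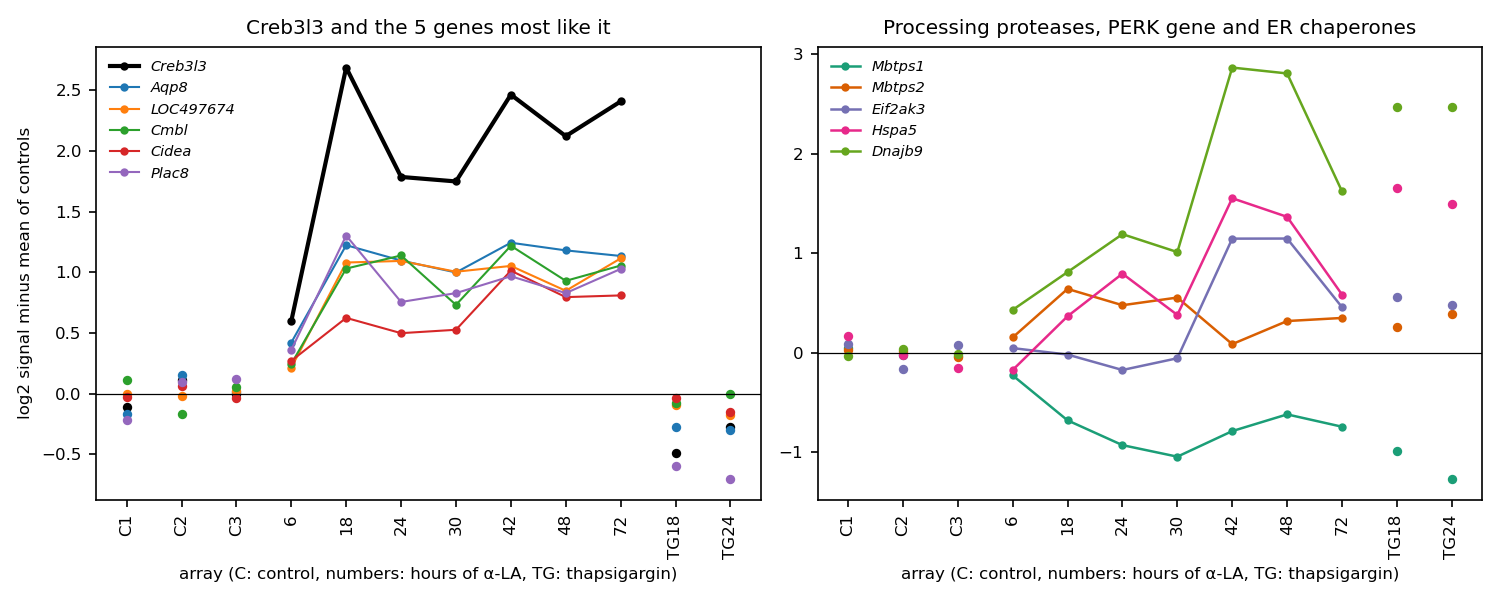
Log2 signal of each array minus the mean of the 3 controls, with α-LA arrays joined in order of time and controls and thapsigargin as separate points. In the left panel Creb3l3 and the 5 genes most like it are up on the α-LA arrays from 18 h and at or below the controls with thapsigargin; in the right panel Mbtps1 is below the controls on each treated array, while Eif2ak3 is up from 42 h on and Dnajb9 reaches 2.47 with thapsigargin.

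Carriers of vesicle transport between ER and Golgi, linked to CREB3, CREB3L1 and CREB3L2 in secretory cells, were called higher for 11 of 15 tested genes with thapsigargin, 8 in the late group and 4 in the early group. Lower calls numbered 0, 0 and 2, and of all probes 37.9%, 36.7% and 32.3% were called. Medians on the log2 scale stood at 0.81, 0.32 and 0.25 in the same order. Sec23b and Sec13, coat proteins of the vesicles that leave the ER, rose 2.17-fold and 2.06-fold with thapsigargin, and 1.68-fold and 1.55-fold in the late group. Sar1a, the GTPase that starts the coat, and Copb1, a subunit of the coat of returning vesicles, rose 1.75-fold and 1.88-fold with thapsigargin, and 1.55-fold and 1.68-fold late. None of these 4 genes passed in the early group (adjusted p from 0.094 to 0.27, limma), though Sec13 did so without the 18 h array and Copb1 without the 72 h array. The early count of 6 called genes became 2 without control 2 and 3 without the 24 h array, and the late count of 8 became 5 without control 2 or the 42 or 48 h array.

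The liver genes known to be bound or driven by CREB3L3 were called in both directions. Of 14 listed, 9 were tested, and early α-LA raised 1 and lowered 3, late α-LA raised 3 and lowered 3, and thapsigargin raised 2 and lowered 4, against 32.3%, 36.7% and 37.9% of all probes called, with medians of -0.01, 0.08 and -0.26 on the log2 scale. Insig2, which holds back sterol synthesis, rose 1.36-fold early (adjusted p = 0.0098, limma), 2.05-fold late (adjusted p = 2.7e-05) and 1.35-fold with thapsigargin (adjusted p = 0.011, or 0.09 without the 24 h thapsigargin array). Cpt1a, the gate of fatty acid oxidation in mitochondria, was at 984.5 ± 21.8 (n = 3) in the controls, 1406 ± 98.6 (n = 3) late and 383 ± 10.6 (n = 2) with thapsigargin. It rose 1.43-fold late (adjusted p = 0.004) and fell 2.57-fold with thapsigargin (adjusted p = 2.6e-06). Pck1 and G6pc1, enzymes of glucose production, fell in all 3 groups, Pck1 10.6-fold early, 11.6-fold late and 8.17-fold with thapsigargin, and G6pc1 4.28-fold, 5.18-fold and 5.48-fold.

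Fgf21, a liver hormone and the best known target of CREB3L3, was under background in each control, at 119 ± 5.78 (n = 3). Its signal was 141, 155 and 125 in the early group and 120, 129 and 127 in the late group, so that 1 of the 6 arrays reached 150. With thapsigargin it was 171 on both arrays, at least 1.14-fold higher than the controls counted at 150. Only these arrays and the 24 h α-LA array reached 150 and let the probe into the test, so no p-value is given. Fgf21 is among the genes counted above as raised with thapsigargin, so that count includes a gene let into the test by its high arrays. Beside these genes, 6 markers of hepatocytes were tested. In the early, the late and the thapsigargin group, 5 of them (Alb, Ttr, Tf, Serpina1 and Fgb) were called lower and 0 higher. Of all tested probes, 15.7%, 17.7% and 18.7% were called lower in these groups. Of the 9 markers listed, 8 were on the array, 6 were above background on all arrays, and Apob and Hnf4a were below it on all. Their summed signal was 91538 to 111703 in the controls, 60653 to 79342 early, 53468 to 75715 late and 41525 to 41665 with thapsigargin, and its part in the changes of Creb3l3 and of the liver genes was not tested. Loss of RNA of this kind from each cell and a smaller share of cells that make it cannot be told apart in such pooled RNA. For cholangiocytes, endothelial cells, macrophages and stellate cells, 4 markers each were listed, of which 4, 1, 2 and 2 were on the array. Of these markers 0 were above background on all arrays, and 3, 1, 2 and 1 were below it on all.

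NFE2L1 is known to drive the genes of the proteasome when that complex is blocked. Of the 30 proteasome genes tested, 3 passed upward and 0 downward in early α-LA, 2 and 1 in late α-LA, and 3 and 1 with thapsigargin, each share below the 32.3%, 36.7% and 37.9% of all probes. The early count of 3 became 5 without control 1 or the 72 h array, and the thapsigargin count of 4 became 2 without control 3 or either thapsigargin array. The medians were 0.04, 0.06 and -0.07 on the log2 scale. Psmd4, a ubiquitin receptor of the proteasome, rose 1.30-fold early (adjusted p = 0.0042, limma), 1.39-fold late (adjusted p = 0.00082) and 1.27-fold with thapsigargin (adjusted p = 0.0075, or 0.071 without its 24 h array). Psmb5, a catalytic subunit, fell 1.34-fold late (adjusted p = 0.0096), and its early change of -0.30 had an adjusted p of 0.053. Psmc6, of the ATPase ring, was 1.23-fold higher late (adjusted p = 0.032), a call lost without control 2 or 3 or the 42 or 72 h array. Psmd1, of the regulatory base, passed in none of the 3 groups, with log2 changes of 0.14, 0.28 and -0.22. Nfe2l1 itself had been called higher in the late and thapsigargin groups.

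**Figure D4:**
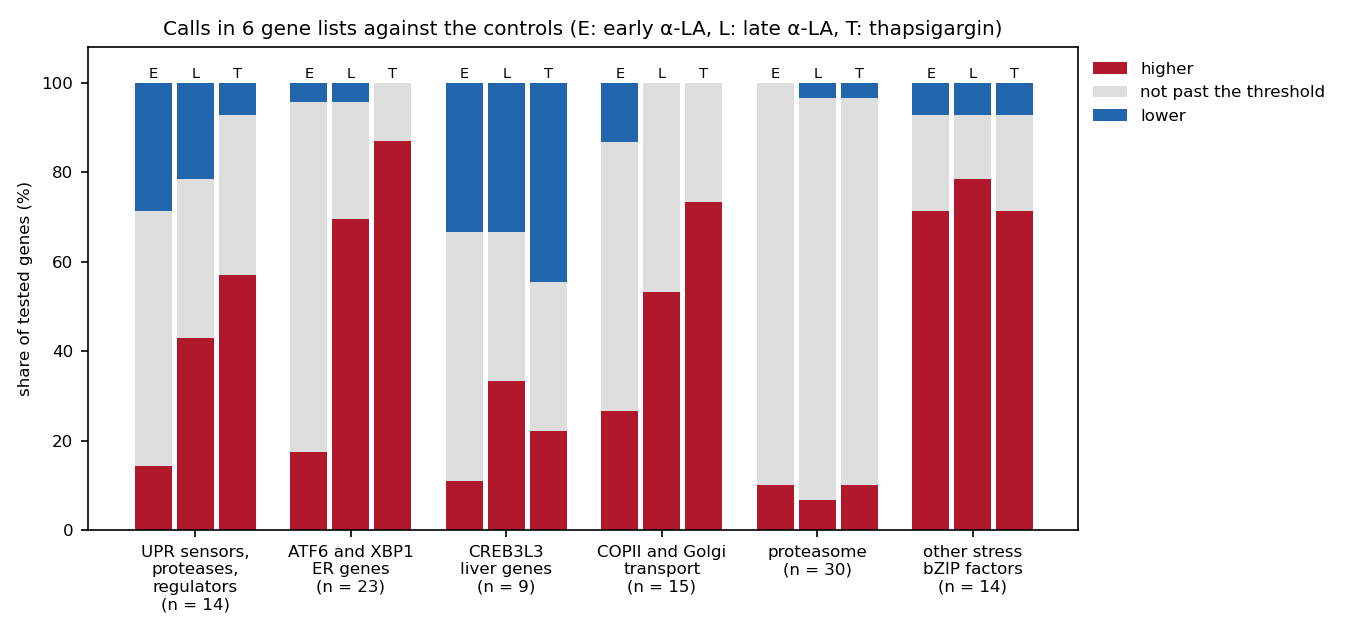
Share of the tested genes (%) of 6 lists called higher, lower or neither against the controls, in the early α-LA (E), late α-LA (L) and thapsigargin (T) groups. The ER genes of ATF6 and XBP1 had 4, 16 and 20 of 23 genes higher, whereas of 30 proteasome genes 3, 2 and 3 were higher.

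Other leucine zipper factors of stress responses, which lie outside the ER membrane, were mostly called higher with both agents. Of 14 tested, 10 went up and 1 down early, 11 up and 1 down late, and 10 up and 1 down with thapsigargin, where 16.6%, 19.1% and 19.2% of all probes were called higher, and the medians were 0.72, 0.79 and 0.66. Ddit3, the Gadd153/Chop factor of ER stress-linked apoptosis, was at 596 ± 87.7 (n = 3) in the controls and rose 7.48-fold early, 9.14-fold late and 22.9-fold with thapsigargin (adjusted p = 7.1e-05, 2.1e-05 and 1.1e-06, limma). Its late signals were 8213, 7038 and 2741 at 42, 48 and 72 h, the last below the lowest early array (3407). Atf3, a repressor induced by many stresses, had a mean signal of 276 early, 655 late and 764 with thapsigargin. Its control signals were 136, 151 and 143, of which 1 reached background. The early, late and thapsigargin arrays let the Atf3 probe into the test, so no fold or p-value against the controls is given. Late Atf3 signals were 752, 836 and 376 at 42, 48 and 72 h. Mafk, a small partner of NFE2L1 and NRF2, rose 2.48-fold early, 4.06-fold late and 3.59-fold with thapsigargin. Its late signals were 4437, 4624 and 2975 at 42, 48 and 72 h. Jun, a subunit of AP-1, was under background in each control. With the controls counted at background, it was at least 1.33-fold, 2.44-fold and 1.41-fold higher. Only the early, late and thapsigargin arrays reached background and let the Jun probe into the test, so no p-value is given. Jun and Atf3 are among the genes counted above as higher in each of these groups. Those counts thus include genes let into the test by the groups in which they were high. Jun left the early count without control 1 or the 18 h array, and the thapsigargin count without its 24 h array.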

How the data were processed

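Per the methods, the authors read the arrays in BeadStudio 3.0.19.0, normalized them by quantiles in BRB-ArrayTools and deposited linear signal intensities for 22523 probes, from 88.3 to 55971, with background still present. A second deposited table, before normalization, has 24 columns of values whose names match no sample and was not used. Its detection p-values could not be tied to an array, so a probe was tested when its intensity reached 150 on at least 3 arrays (9193 probes). On each array 8409 to 8422 probes reached 150. Log2 signals were fitted with limma 3.58.1 in R 4.3.3 (lmFit, eBayes), with Benjamini-Hochberg adjustment over all tested probes and a threshold of 0.05. Controls, early and late α-LA were fitted together (9 arrays), and a fit of 11 arrays added thapsigargin; the 6 h array entered no test. The number of arrays limits the precision. In control 1, 33 of 5060 probes were at least 2-fold lower than in the other controls; in controls 2 and 3 there were 0. Probes were named from the platform annotation (13793) or from the study's table (1683), and 7047 had no name; a gene with several probes is given by the one with the highest mean. Besides the members, the text names up to 4 genes of each list with the largest absolute late change, 9 genes in any case (Fgf21, Hspa5, Hsp90b1, Dnajb9, Herpud1, Eif2ak3, Ern1, Mbtps1 and Mbtps2), and the probes most correlated with each member. The members and lists were chosen with earlier results of these data known. The fit was tested on simulated data. Alternatives covered the filter, the fit, background subtraction, centring and leaving out each array. Promoter windows are from RefSeq (GRCr8).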

Additional observations from a re-analysis of the deposited data

Results flagged for a closer look

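Atf6b differed between the early and late α-LA groups by -0.80 on the log2 scale (adjusted p = 0.0025, limma), above the controls in the former and at or below them in the latter, and kept this call in each alternative run. Some of the list genes given with their own values were higher in the late than in the early group, by the test of late against early α-LA. They were Dnajb9 (1.43), Atf3 (1.16), Eif2ak3 (1.0), Jun (0.88), Hsp90b1 (0.78), Mafk (0.71), Manf (0.70), Insig2 (0.59) and Cpt1a (0.47). Atf3 and Jun were let into the test by the groups in which they were high. For Hsp90b1, Manf and Cpt1a the late against early difference did not pass when the early and late groups were fitted alone. It was also lost without any 1 of the 18, 30, 42 or 48 h arrays for Hsp90b1 and Manf (adjusted p from 0.053 to 0.11, limma), and without the 24, 30 or 48 h array for Cpt1a (0.051 to 0.074).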

How the results depend on the processing

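The 36 tested differences of members gave 630 values over 21 alternatives, 11 of which left out 1 array; 608 kept direction and side of the threshold, 17 no longer passed, 5 now passed and 0 reversed. Those that changed belonged to Creb3, Creb3l2, Nfe2l1 and Xbp1 and are given with the genes, besides Creb3 early (adjusted p = 0.063) and Nfe2l1 in thapsigargin against early α-LA (0.055) after background subtraction. That subtraction moved the Creb3l3 differences to 2.61 early, 2.90 late and -0.67 with thapsigargin, as less background is left in its dim control signals. Late against early α-LA called 1256 probes, 829 with only these groups fitted (fewer arrays), and 704 (without the 42 h array) to 1271 with 1 array left out. With 1 array left out, thapsigargin against the controls called 2306 to 3702 probes (3484 in all), against early α-LA 1276 to 2794 (2530) and against late α-LA 958 to 2641 (2306); each lowest count came without the 18 h thapsigargin array, which leaves 1 array assumed to vary like the other groups. Of 642 list counts under an alternative, 574 were within 1.5 times, 54 lower and 14 higher. Of 1827 values for 27 named list genes, 1765 kept their call, 31 lost and 31 gained it, and 0 reversed. The arrays carry no replicate number shared between groups, but thapsigargin and α-LA share the titled hours 18 and 24. With those 4 arrays and the hour as a replicate block (1 residual degree of freedom), chosen after seeing the data, thapsigargin against early α-LA called 1737 probes, against 2113 with the early group limited to those hours and no block; Nfe2l1 lost its call (adjusted p = 0.066), and the other members tested kept theirs. Signal over background limits Atf6, Creb3l2, Creb3l3 with thapsigargin and Fgf21.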
